A study of Mus musculus with 2 samples.

Results

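The genes described here are 8 mouse genes, Ctla2a, Ctla2b, Myct1, Adgrl4, Krt18, N4bp3, Tnfrsf12a and Map9, of 31053 genes measured in single cells of bone marrow. They were picked by symbol as genes of cells between haematopoietic stem cells and their progeny, from levels in these same cells, so their levels are given as a description without tests. The study profiled cells labelled haematopoietic stem cells (HSCs) with a droplet 3' kit of 10x Genomics. The Listeria library came from wild-type C57BL/6J mice challenged with Listeria monocytogenes and sampled 6 weeks later, and the naive library from untreated wild-type C57BL/6J mice. Mice of both groups were given as 6 to 8 weeks old. If this was the age at challenge, Listeria mice may have been older at sampling, and age then cannot be told apart from the challenge. The name under which the Listeria data were deposited speaks of a knockout; every label says wild type, for both groups, and labels were followed here. Each group is 1 library, the number of mice behind it is not stated in the labels, and no marker used for sorting is named there.

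Haematopoietic stem cells keep themselves mostly quiescent, and as they leave that state they lose stem cell transcription factors, gain Cd34 and Flt3 and begin to divide. Several genes of such cells are also known from the endothelium, with which blood stem cells share a developmental origin. Ctla2a and Ctla2b encode small proteins related to the propeptide of cysteine cathepsins, and Ctla2a protein inhibits cathepsin L. Tnfrsf12a encodes the receptor Fn14 for the cytokine TWEAK, and Adgrl4 encodes an adhesion G protein-coupled receptor best known in blood vessels. Myct1 is a MYC target gene known in endothelium, Krt18 encodes a keratin that pairs with keratin 8, Map9 a microtubule-associated protein of the spindle, and N4bp3 a protein that binds the ubiquitin ligase Nedd4.

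The Listeria library held 43895966 unique molecular identifiers (UMIs, each standing for 1 captured RNA molecule) and the naive library 64619150. Cells with at least 2500 UMIs, at least 500 genes and at most 10% mitochondrial UMIs were kept, which left 4839 Listeria and 6375 naive cells with medians of 7239 and 6972 UMIs. Kept cells of both libraries shared 14 barcodes. Cells carrying marker genes of another lineage above a minimum were set aside by 10 gates, and the others are called lineage-low. Lineage-low cells made up 66.2% of Listeria and 53.7% of naive cells, or 3205 and 3426 cells, while the B-lineage gate took 8.43% and 23.0%. Doublets were not called, so they remain among the cells, and 164 Listeria and 272 naive cells passed more than 1 gate. Levels are in CPM, counts per 1000000 UMIs summed over a set of cells; UMIs of a 3' kit count molecules and were not scaled by gene length. Intervals cover counting error at the 95% level and say nothing of the spread between cells or between mice. In summed counts, fewer cells with a gene and less RNA per cell cannot be told apart.

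Ctla2a and Ctla2b lie on the minus strand of chromosome 13, Ctla2a at chr13:60934155-60936625 and Ctla2b at chr13:60895350-60897447 in mm10, with 36707 bases between them. Their promoters are shown because the levels of this neighbouring pair parted across the cells, over the immediate early quartiles. Each runs from 250 bases before to 50 after a transcription start listed in RefSeq on GRCm38.p6, 5′ to 3′ on the minus strand, at chr13:60936576-60936875 for Ctla2a and chr13:60897398-60897697 for Ctla2b. Capitals mark matches to TGANTCA, the AP-1 site that Fos and Jun proteins bind, to AGATAA of GATA factors in either direction and to TATAAA; the GATA and TATA matches of Ctla2a overlap by 1 base.
Ctla2a: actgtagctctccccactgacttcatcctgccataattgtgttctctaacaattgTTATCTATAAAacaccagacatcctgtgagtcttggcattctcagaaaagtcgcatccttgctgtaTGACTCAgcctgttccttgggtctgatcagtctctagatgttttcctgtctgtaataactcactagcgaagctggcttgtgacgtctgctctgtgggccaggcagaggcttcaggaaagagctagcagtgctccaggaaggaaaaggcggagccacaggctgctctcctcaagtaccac
Ctla2b: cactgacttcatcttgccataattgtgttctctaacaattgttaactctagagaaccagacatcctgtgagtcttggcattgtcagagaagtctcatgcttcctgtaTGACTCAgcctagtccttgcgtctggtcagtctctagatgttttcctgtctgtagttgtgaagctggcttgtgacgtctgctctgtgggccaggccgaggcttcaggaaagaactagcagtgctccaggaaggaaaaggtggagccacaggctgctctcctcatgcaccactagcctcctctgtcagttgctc
The pair was 91.7% identical over 278 aligned bases, and both held the letters TGACTCA. On either strand TGANTCA occurred in 7.81% of the 32851 mouse promoters of this length in the table and in 2 of the 8 genes, Ctla2a and Ctla2b. The 8 genes had 10 promoters, with a second promoter for Ctla2a and for Map9, and a match in any promoter of a gene was counted. AGATAA occurred in 11.2% of promoters and in 2 of the 8 genes, Ctla2a and Myct1, for Ctla2a only in the promoter shown. CCGGAA, an ETS factor site, occurred in 14.9% and in Adgrl4 and Tnfrsf12a, and CAGCTG, an E-box, in 16.3% and in none of the 8. TATAAA occurred in 13.6% and in Ctla2a, Myct1 and Map9, for Map9 in only 1 of its promoters. A match of letters is not evidence of binding. The longest coding transcripts of Ctla2a and Ctla2b were 88.8% identical over 786 aligned bases. Of 50-base windows, 7.8% of Ctla2b's were found unchanged in Ctla2a, and of 90-base windows 0%. These windows span the whole transcript and not only its 3' end. Read length is not given, so how many reads could not be told apart is unknown and the low counts of Ctla2b are uncertain.

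Ctla2a was an abundant RNA of the lineage-low cells, and the other 7 were scarcer. Ctla2a reached 4420 CPM in Listeria and 4075 CPM in naive lineage-low cells, which was 0.442% and 0.408% of all their UMIs and ranked it 31 and 44 among all genes. The median lineage-low cell carried 28 Ctla2a UMIs in the Listeria and 24 in the naive library, with quartiles of 14 and 48 and of 12 and 41. Adgrl4 had 330 and 284 CPM, Krt18 326 and 304 CPM, Myct1 180.1 and 215 CPM, and Tnfrsf12a 131 and 168 CPM in Listeria and naive cells. Map9 had 74.8 and 94.9 CPM, Ctla2b 56.0 and 58.2 CPM, and N4bp3 49.3 and 86.5 CPM. After thinning every cell to 4000 UMIs, 96.9% of Listeria and 96.6% of naive lineage-low cells kept a Ctla2a UMI, against 33.0% and 49.7% of B-lineage gate cells. The thinning left out 107 of 3205 and 277 of 3426 lineage-low cells, and unthinned shares were 97.2% and 97.5% against 46.1% and 71.2% in B-lineage cells, whose median depth was higher (9598 and 9092 UMIs, against 6965 and 6640).

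The other genes were found in fewer cells after thinning. A Ctla2b UMI remained in 18.4% of Listeria and 20.4% of naive lineage-low cells, against 2.41% and 2.87% of B-lineage cells. A Krt18 UMI remained in 53.5% and 54.9%, against 4.02% and 6.94% of B-lineage cells, and a Myct1 UMI in 48.1% and 51.7%, against 1.61% and 4.15%. N4bp3 stood apart, since 17.8% of Listeria and 28.4% of naive lineage-low cells carried a UMI, against 25.5% and 26.5% of B-lineage cells. The variance of thinned UMIs over their mean, where 1 is counting noise alone, was 10.6 in Listeria and 9.08 in naive cells for Ctla2a and 3.94 and 2.58 for Krt18, and lay between 1.16 and 1.52 for the other 6. This measure grows with the level, so it does not rank genes of different levels. Krt18 and Adgrl4 had similar means after thinning (1.32 and 1.36 UMIs in Listeria, 1.23 and 1.13 UMIs in naive cells), and Krt18 had the higher variance over mean of this pair in both libraries.

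Across gates, Ctla2a was highest in lineage-low cells in both libraries and, of gates with at least 30 cells in both, lowest in plasma gate cells. In the Listeria library Ctla2a stood at 3644 CPM in T and NK gate cells without a Cd3 UMI, 3126 CPM in the megakaryocyte gate and 2483 CPM in the myeloid granule gate. It then stood at 1454 CPM in the dendritic and monocyte gate, 1091 CPM in T and NK gate cells with a Cd3 UMI, 728 CPM in the erythroid, 426 CPM in the neutrophil, 302 CPM in the B-lineage and 32.3 CPM in the plasma gate. No Poisson intervals of neighbours in that order overlapped, but these intervals leave out the spread between cells. The variance of thinned Ctla2a UMIs over their mean was 9.19 in B-lineage and 18.95 in neutrophil gate cells of the Listeria library. The highest Listeria B-lineage cell held 126 of the 1254 Ctla2a UMIs of that gate, so the order of neighbouring gates is uncertain. In the naive library the order was the myeloid granule gate at 3175 CPM, the megakaryocyte gate at 3126 CPM, T and NK gate cells without a Cd3 UMI at 2165 CPM, the dendritic and monocyte gate at 1295 CPM and those with a Cd3 UMI at 1095 CPM. The erythroid gate followed at 492 CPM, the B-lineage gate at 469 CPM, the neutrophil gate at 323 CPM and the plasma gate at 234 CPM. There the intervals of the myeloid granule and megakaryocyte gates overlapped, and so did those of the erythroid and B-lineage gates. Only 43 of 331 Listeria and 86 of 430 naive cells of the T and NK gate carried a Cd3 UMI, so most of that gate is not shown to be T cells. The gate for endothelial genes took 5 Listeria and 17 naive cells, and those genes summed to 3.82 and 5.61 CPM in lineage-low cells.

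**Figure D1:**
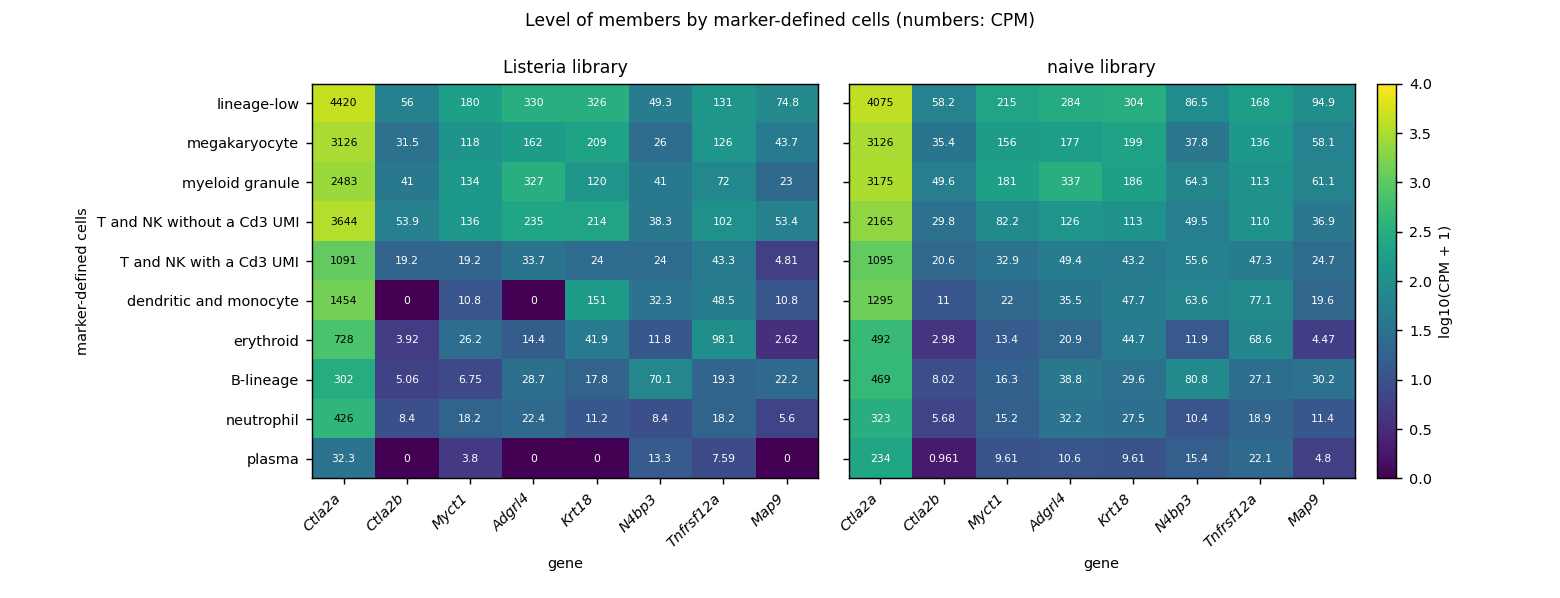
Level of the 8 genes (columns) in lineage-low cells and in cells of the lineage gates (rows) in the Listeria library (left) and the naive library (right); colour is log10(CPM + 1) and the printed number is CPM of summed UMIs. Ctla2a reached 4420 CPM in Listeria and 4075 CPM in naive lineage-low cells, and N4bp3 had 70.1 and 80.8 CPM in Listeria and naive B-lineage gate cells, against 49.3 and 86.5 CPM in lineage-low cells.

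Adgrl4 had 327 CPM in Listeria and 337 CPM in naive cells of the myeloid granule gate, against 330 and 284 CPM in lineage-low cells. N4bp3 was higher in the B-lineage gate than in lineage-low cells of the Listeria library and close to them in the naive library, whereas each of the other 7 genes was lower in that gate than in lineage-low cells of both libraries. Tnfrsf12a kept 126 and 136 CPM in the megakaryocyte gate. Free RNA also carries these genes. Barcodes with 1 to 50 UMIs held 3916 CPM of Ctla2a in the Listeria and 4987 CPM in the naive library, and plasma gate cells held 0.824% and 4.68% of those levels, B-lineage gate cells 7.71% and 9.41%. The part of free RNA in the levels of lineage-low cells was not tested beyond the subtraction given with the library comparison.

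The HSC marker sum, the UMIs per 10000 of Procr, Mecom, Hlf and Mllt3 together, ordered lineage-low cells from 0 to over 8. Ctla2a peaked in the middle of this order, while Ctla2b, Myct1, Adgrl4 and Map9 kept climbing or levelled at its top. From the lowest to the highest of the 5 bins, Ctla2a had 3451, 4369, 4731, 4971 and 4055 CPM in Listeria cells and 2423, 3755, 4624, 4619 and 4059 CPM in naive cells. Both libraries thus had their highest Ctla2a between 2 and 8 and less above 8; the top bin was lower than the middle bins by a log2 ratio of -0.26 (-0.29 to -0.24) in Listeria and -0.19 (-0.21 to -0.17) in naive cells. Ctla2b had 28.3, 48.9, 54.0, 68.9 and 63.4 CPM in Listeria cells and 22.4, 40.0, 54.7, 68.9 and 76.9 CPM in naive cells. It was lowest in cells without marker UMIs in both libraries, and its last 2 bins had overlapping intervals.

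Myct1 had 97.9, 151, 190.2, 196 and 221 CPM in Listeria cells and 86.9, 158, 208, 248 and 281 CPM in naive cells, highest in the top bin of both. Map9 followed the same order with 30.2, 67.0, 74.6, 83.6 and 96.3 CPM in Listeria cells and 29.5, 70.8, 96.6, 102 and 133 CPM in naive cells. Adgrl4 had 178, 274, 338, 382 and 389 CPM in Listeria cells and 155, 240, 294, 324 and 320 CPM in naive cells. These 3 genes were thus highest, or level, where the HSC marker sum was highest. Adgrl4 was also higher in cells with Cd34, as given below, so this order alone does not settle whether they are genes of transitional cells. Of the 8, Ctla2a alone was lower in the top bin than in the middle bins of both libraries with a counting interval clear of 0. Krt18 had 256, 344, 348, 352 and 303 CPM in Listeria cells and 117, 267, 308, 368 and 346 CPM in naive cells, and differed most between libraries in cells without marker UMIs. N4bp3 was flat, with 46.0, 53.6, 52.1, 49.1 and 45.7 CPM in Listeria cells and 82.9, 80.0, 90.6, 91.5 and 82.6 CPM in naive cells. Tnfrsf12a had 143, 144, 145, 130.3 and 101 CPM in Listeria cells, where it was lowest at the top, and 136, 154, 169, 186 and 171 CPM in naive cells, where it was lowest at the bottom.

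**Figure D2:**
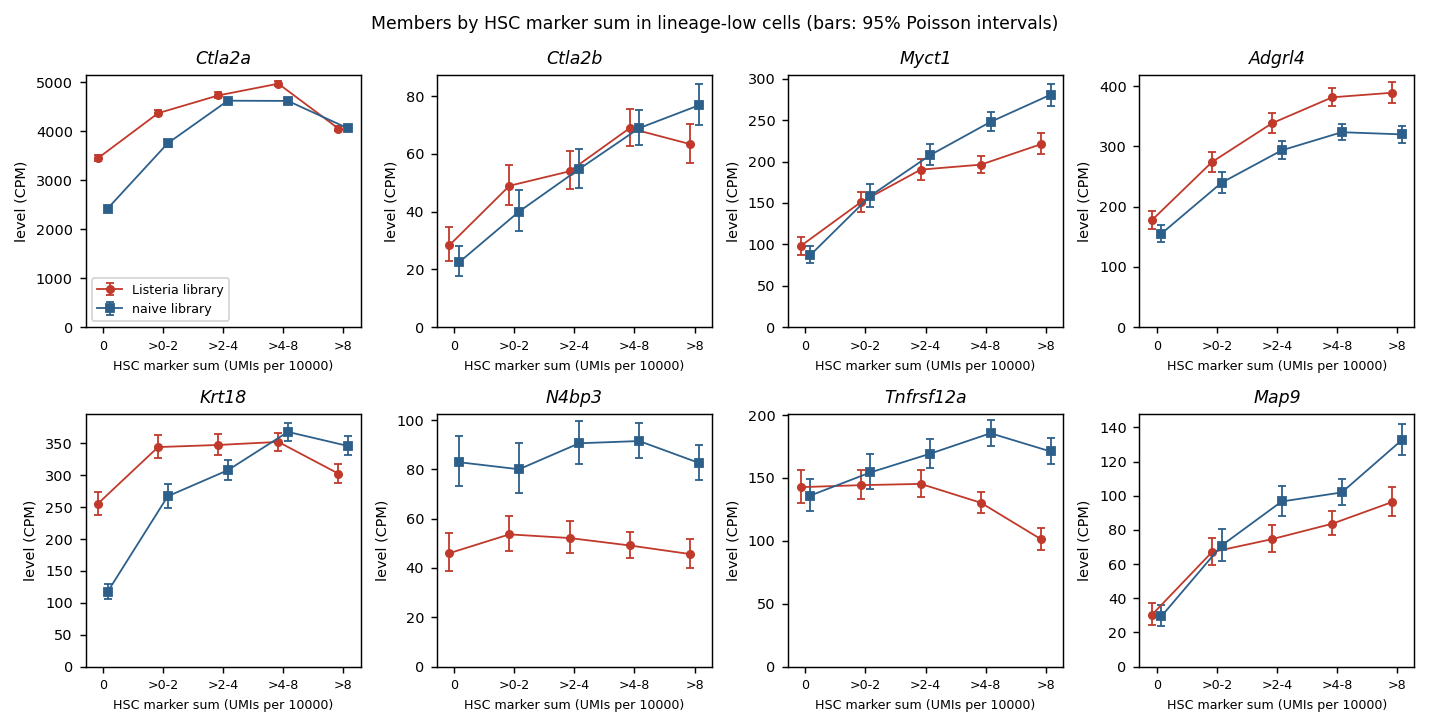
Level of each gene (CPM of summed UMIs, y axes from 0) in lineage-low cells binned by HSC marker sum (UMIs per 10000 of Procr, Mecom, Hlf and Mllt3) in the Listeria library (circles) and the naive library (squares); bars are 95% Poisson intervals. Ctla2a is highest between 2 and 8, Myct1 and Map9 are highest in the top bin, and N4bp3 is flat and lower in the Listeria library in all 5 bins.

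Between cells with a marker sum over 4 and cells with 0, 6 of the 8 genes were over 25% higher in both libraries, where 15.1% of the 8031 genes that reached 10 CPM in 1 library or both were; the genes were chosen on levels of this kind, so nothing is read from that count. The log2 ratio was largest for Map9, at 1.56 (1.26 to 1.88) in Listeria and 1.98 (1.68 to 2.29) in naive cells. N4bp3 had 0.05 (-0.22 to 0.32) and 0.07 (-0.12 to 0.27). Cells with a sum over 4 had median depths of 6575 UMIs in the Listeria and 6511 UMIs in the naive library, and cells with 0 had 6991 and 6270 UMIs. With cells thinned to 4000 UMIs and binned at 2 marker UMIs or more against 0, the naive ratio of Krt18 was 0.87 in place of 1.61, of Ctla2b 1.10 in place of 1.70, of Myct1 1.01 in place of 1.60 and of Map9 1.21 in place of 1.98. The Listeria ratio of Map9 was then 0.96. Taking bins over all kept cells, gated cells included, gave Ctla2a ratios of 1.52 in Listeria and 2.34 in naive cells, in place of 0.40 and 0.85. The Tnfrsf12a ratios were then 0.596 and 1.72, in place of -0.281 and 0.395, so its opposite signs in the libraries held in lineage-low cells and not with gated cells included.

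Cd34, the surface protein gained as stem cells become progenitors, split the genes and the libraries. Adgrl4 was higher in cells with over 2 Cd34 UMIs per 10000 than in cells with 0 in both libraries, at 422 against 241 CPM in Listeria cells (log2 ratio 0.81, 0.73 to 0.88) and 365 against 212 CPM in naive cells (0.78, 0.70 to 0.86). It was the only 1 of the 8 over 25% higher in both, where 4.07% of genes were. Ctla2a had 4424 against 4323 CPM in Listeria cells, hardly apart, and 4807 against 3388 CPM in naive cells (log2 ratio 0.50, 0.48 to 0.52). Krt18 had 230 against 394 CPM in Listeria cells (-0.78, -0.86 to -0.70) and 293 against 308 CPM in naive cells (-0.07, -0.15 to 0.00). Map9 was lower with Cd34 in both, at 61.3 against 91.3 CPM in Listeria and 85.6 against 104 CPM in naive cells. Tnfrsf12a had 107 against 156 CPM in Listeria cells and 171 against 166 CPM in naive cells. With gated cells included, Ctla2a, Ctla2b, Myct1 and Adgrl4, 4 of the 8, were over 25% higher in both libraries, where 10.8% of 8183 genes were. The ratio of Map9 in naive cells was then 0.69 in place of -0.28 and that of Krt18 1.10 in place of -0.07, and that of Tnfrsf12a in Listeria cells 0.02 in place of -0.54, so the Cd34 order rests on which cells are set aside.

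**Figure D3:**
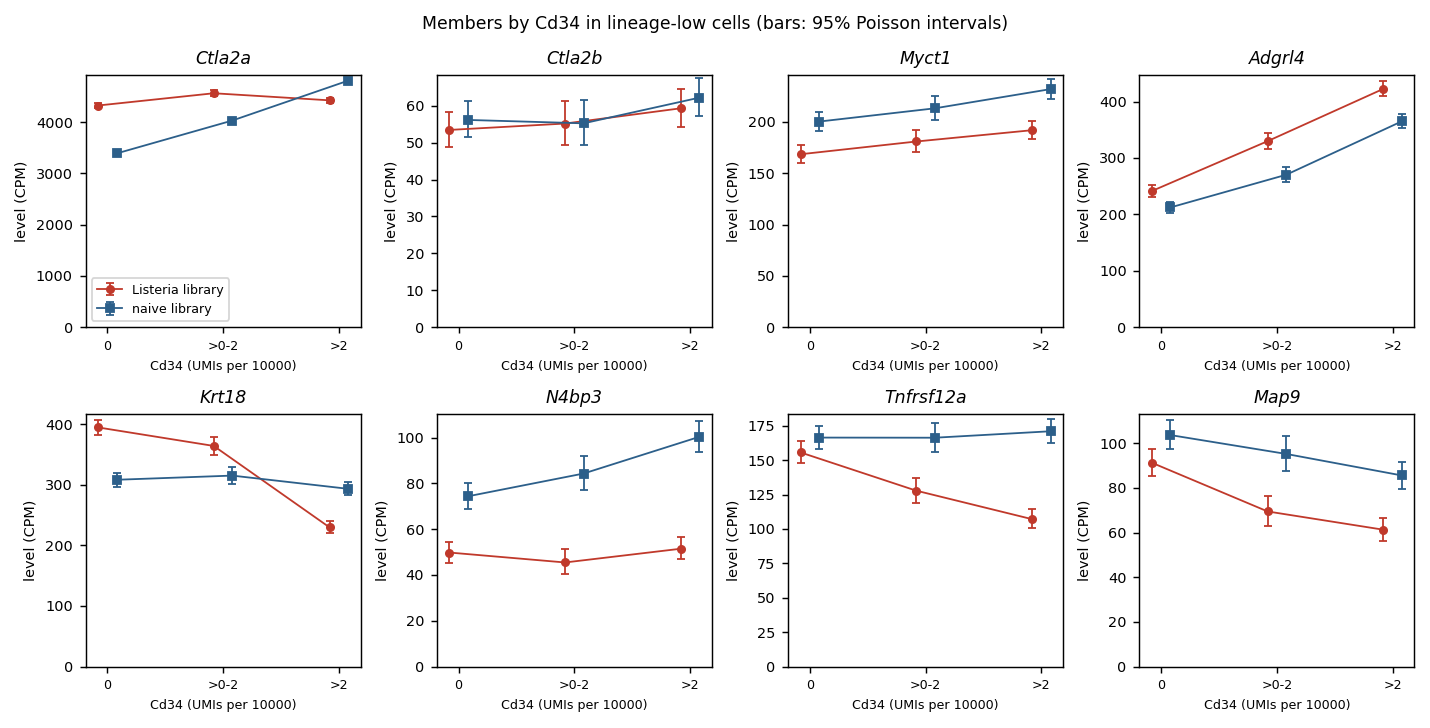
Level of each gene (CPM of summed UMIs, y axes from 0) in lineage-low cells binned by Cd34 (UMIs per 10000) in the Listeria library (circles) and the naive library (squares); bars are 95% Poisson intervals. Adgrl4 climbs with Cd34 in both libraries, Ctla2a climbs in the naive library, and Krt18 is at 230 CPM in Listeria cells with over 2 Cd34 UMIs, against 394 CPM in Listeria cells with 0.

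Taking both markers at once gave 15 strata of at least 80 cells each. Ctla2a ranged over the strata between 3071 and 5325 CPM in the Listeria library and between 1549 and 5230 CPM in the naive library. Its minimum in the naive library was in cells with neither marker sum nor Cd34, where the Listeria library had 3536 CPM. Krt18 showed the same corner, with 332 CPM in the 248 Listeria cells and 90.9 CPM in the 234 naive cells without either. In strata with over 2 Cd34 UMIs and a marker sum over 0, Ctla2a was lower in Listeria than in naive cells in 4 of 4, at log2 ratios of -0.11, -0.19, -0.11 and -0.18 from the lowest bin up.

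Compared between libraries over all kept cells, Adgrl4, Ctla2a and Krt18 were higher in the Listeria library and N4bp3 was lower. Adgrl4 had 258 CPM in Listeria and 182 CPM in naive cells (log2 ratio 0.50, 0.46 to 0.54), Ctla2a 3455 and 2578 CPM (0.42, 0.41 to 0.43), and Krt18 245 and 183 CPM (0.42, 0.38 to 0.46). N4bp3 had 46.0 and 74.5 CPM (-0.70, -0.78 to -0.61). These 3 of 8 were over 25% higher, where 15.1% of 8183 genes were, and 1 of 8 was over 20% lower, where 8.62% were. The median log2 ratio of the 8 was 0.18, against 0.07 over all genes tested. The Listeria library held fewer B-lineage cells, in which these 3 genes were low, so the same comparison was made in lineage-low cells.

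In lineage-low cells the ratios of Ctla2a, Adgrl4 and Krt18 were smaller, and N4bp3, Tnfrsf12a and Map9 were lower in the Listeria library. Ctla2a was at a log2 ratio of 0.12 (0.10 to 0.13), Adgrl4 at 0.22 (0.17 to 0.26) and Krt18 at 0.10 (0.06 to 0.15). N4bp3 was at -0.81 (-0.91 to -0.71), Tnfrsf12a at -0.36 (-0.43 to -0.29), Map9 at -0.34 (-0.43 to -0.25), Myct1 at -0.26 (-0.32 to -0.20) and Ctla2b at -0.06 (-0.16 to 0.05). None of the 8 was over 25% higher, where 19.7% of 8031 genes were, and 3 were over 20% lower, N4bp3, Tnfrsf12a and Map9, where 6.84% were. The median of the 8 was -0.16, against 0.10 over all genes tested. N4bp3 was lower in the Listeria library in 15 of 15 strata, and over 20% lower in 14. Adgrl4 was higher in 15 of 15, and over 25% higher in 5. With 1 library in each group there is no replicate check of any of these differences. Free RNA was taken as 12.4% of Listeria and 22.9% of naive UMIs, and levels were not rescaled after subtracting it. Taking the larger share from naive cells by itself raises Listeria over naive ratios. These shares came from haemoglobin RNA in lineage-low cells and were used for all kept cells too. Subtracting free RNA moved the Ctla2a ratio to 0.42, or 1.05 over all kept cells, and the Tnfrsf12a ratio to -0.12, and left N4bp3 at -0.53, while the median of all genes in lineage-low cells moved to 0.27; the amount subtracted was too large, since 1143 CPM of Ctla2a in naive cells exceeds the 469 CPM that B-lineage cells held. After that subtraction 6 of the 8 were over 25% higher in the Listeria library over all kept cells, where 35.9% of genes were, and in lineage-low cells 1 was over 25% higher, where 43.3% of genes were, and 1 over 20% lower, where 3.77% were.

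**Figure D4:**
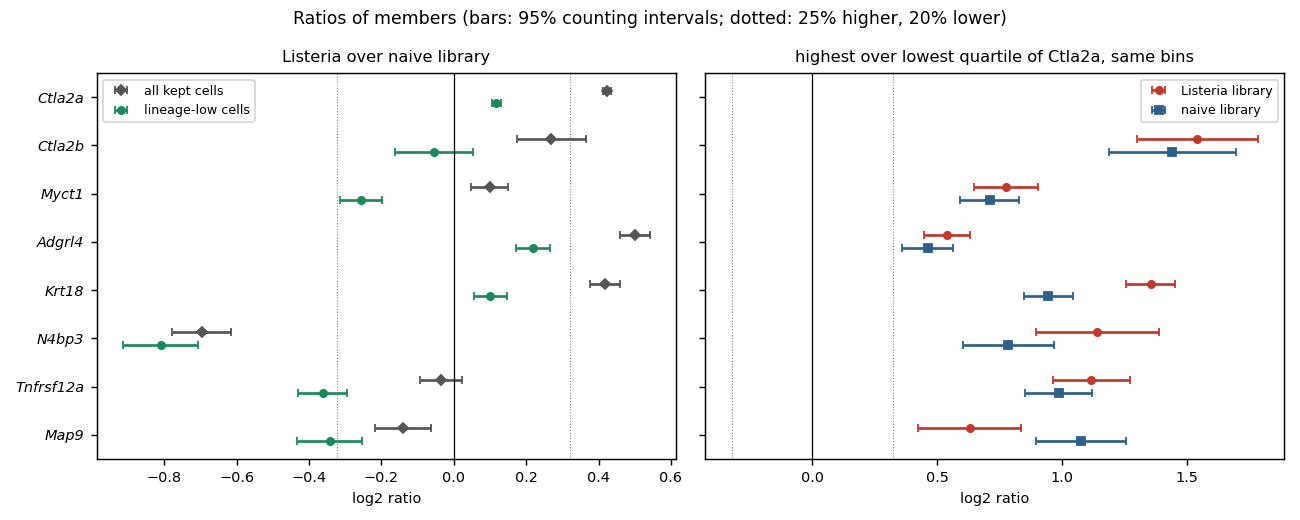
Log2 ratios with 95% counting intervals: left, Listeria over naive library in all kept cells (diamonds) and in lineage-low cells (circles); right, highest over lowest quartile of Ctla2a within the same marker bins in the Listeria library (circles) and the naive library (squares). Dotted lines stand at 25% higher and 20% lower; N4bp3 is lowest on the left at -0.81 in lineage-low cells, and all 7 genes other than Ctla2a lie to the right of the upper line in the right panel.

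The 2 libraries also differed in immediate early genes, such as Fos, Jun and Egr1, which cells switch on soon after stimulation or handling. Quartiles of the summed immediate early UMIs, taken over lineage-low cells of both libraries, held 1288, 615, 612 and 690 Listeria cells and 370, 1043, 1045 and 968 naive cells from the lowest up. Ctla2a fell from quartile to quartile in Listeria cells, with 5709, 4460, 3408 and 2860 CPM, and was highest in the second quartile and lowest in the top one of naive cells, with 4304, 4576, 4035 and 3442 CPM. Its Listeria over naive log2 ratio was 0.41 (0.38 to 0.44) in the lowest quartile and -0.27 (-0.30 to -0.24) in the highest. With each quartile given the same weight in both libraries, an alternative chosen after seeing the data, the ratio of Ctla2a was 0.01 in place of 0.12, that of N4bp3 -0.91 and that of Tnfrsf12a -0.38, and Map9 at -0.18 was no longer over 20% lower.

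Ctla2b did not follow its neighbour. It had 51.7, 59.0, 49.6 and 68.0 CPM in Listeria cells and 42.0, 50.5, 58.6 and 73.2 CPM in naive cells, and was higher in the top than in the bottom quartile by a log2 ratio of 0.40 (0.19 to 0.60) and 0.80 (0.50 to 1.11), where Ctla2a was at -0.997 (-1.02 to -0.97) and -0.32 (-0.35 to -0.29). For every 100 Ctla2a UMIs there were 0.906 (0.827 to 0.989), 1.32, 1.46 and 2.38 (2.13 to 2.65) Ctla2b UMIs in Listeria cells and 0.977 (0.802 to 1.18), 1.10, 1.45 and 2.13 (1.94 to 2.33) in naive cells. The same ratio was 0.821 and 0.925 in Listeria and naive cells without HSC marker UMIs and 1.56 and 1.89 in cells with a sum over 8. Ctla2b counts were therefore not 1 fixed fraction of Ctla2a counts.

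Krt18 moved in opposite directions in the libraries, with 375, 385, 283 and 216 CPM from the lowest quartile up in Listeria cells and 214, 293, 322 and 333 CPM in naive cells. The top over bottom log2 ratio of Krt18 was -0.80 (-0.90 to -0.69) in Listeria and 0.64 (0.51 to 0.78) in naive cells. N4bp3 was lower in the top quartile in both, with 59.9, 66.4, 38.1 and 22.5 CPM in Listeria cells and 101, 99.3, 83.8 and 68.6 CPM in naive cells. Tnfrsf12a had 153, 159, 115 and 74.8 CPM in Listeria cells and 146, 192, 168 and 149.9 CPM in naive cells. Map9 was lowest in the bottom quartile of both, at 57.1 CPM in Listeria and 62.3 CPM in naive cells, and between 79.5 and 99.4 CPM in the other quartiles. In both libraries 2 genes, Ctla2b and Map9, were over 25% higher in the top quartile, where 18.4% of genes were, and 2, N4bp3 and Ctla2a, over 20% lower, where 19.1% were. The part of the immediate early levels in the differences between libraries was not tested beyond the weighting above. How much of the differences between quartiles goes with the HSC marker sum was not tested.

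**Figure D5:**
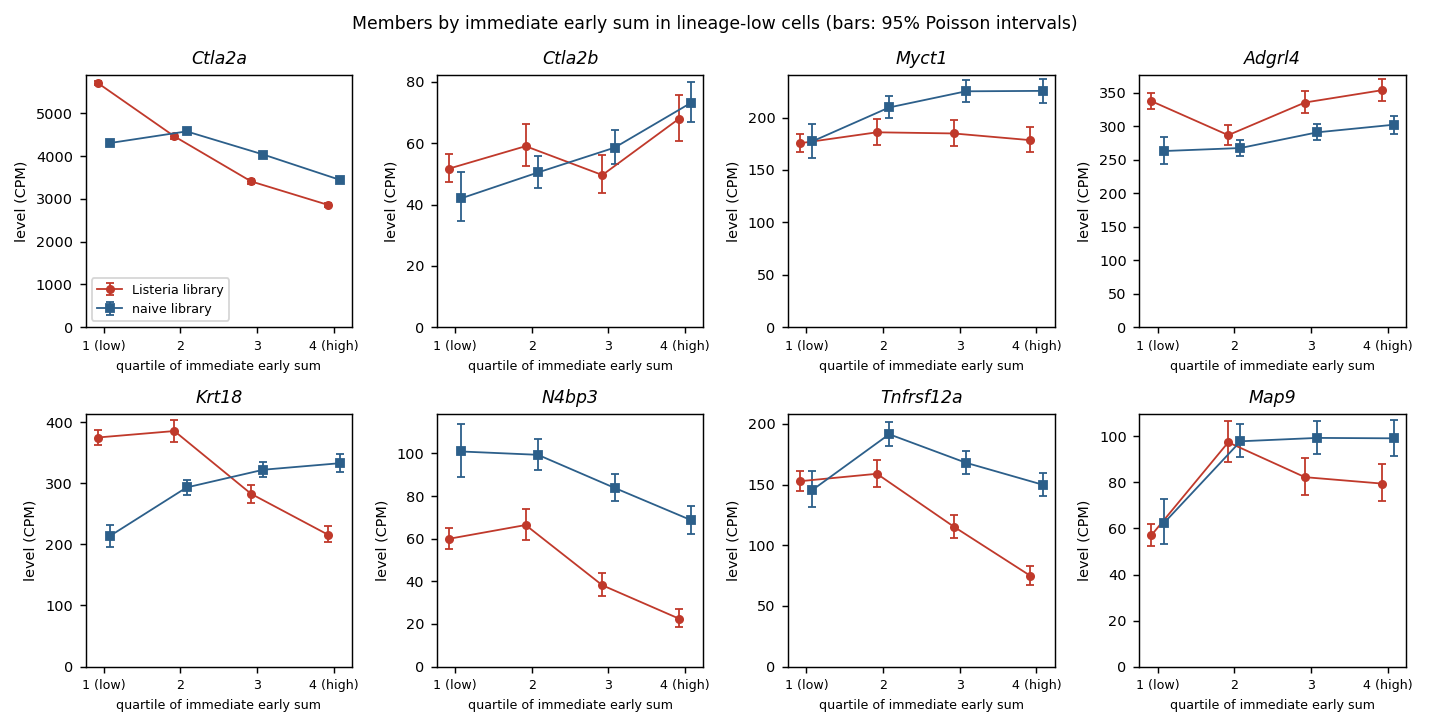
Level of each gene (CPM of summed UMIs, y axes from 0) in lineage-low cells by quartile of the immediate early sum, with cut points taken over both libraries, in the Listeria library (circles) and the naive library (squares); bars are 95% Poisson intervals. Ctla2a falls to 2860 CPM in the top quartile of Listeria cells and 3442 CPM in that of naive cells, Ctla2b does not, and the lines of Krt18 cross.

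Dividing cells of both libraries held less Ctla2a, Ctla2b and Map9. They also held less of all 4 genes of the HSC marker sum, at median log2 ratios of -0.92 in Listeria and -0.64 in naive cells. The part of the marker sum in this difference was not tested. In cells with at least 5 UMIs per 10000 of G2 and M phase genes, Ctla2a had 3352 CPM in the Listeria and 3265 CPM in the naive library, against 4684 and 4232 CPM in the other lineage-low cells. Ctla2b had 41.8 and 41.3 CPM in these cells, against 59.5 and 61.4 CPM in the others. Ctla2a, Ctla2b and Map9 were over 20% lower in dividing cells of both libraries, where 5.39% of genes were, and no gene of the 8 was over 25% higher, where 9.11% of genes were. Krt18 was at log2 ratios of 0.10 (0.02 to 0.18) and 0.13 (0.05 to 0.22). Adgrl4 was at -0.48 (-0.56 to -0.39) and -0.30 (-0.40 to -0.20), the naive value short of 20% lower.

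Cells were next split by Ctla2a itself, the highest quartile against the lowest within each of the 15 strata, so that both sides drew alike on every bin of marker sum and Cd34. The other 7 genes were all higher in the Ctla2a-rich cells of both libraries. Ctla2b had 90.4 against 31.1 CPM in Listeria cells (log2 ratio 1.54, 1.30 to 1.78) and 79.6 against 29.4 CPM in naive cells (1.44, 1.19 to 1.70). Krt18 had 496 against 194 CPM in Listeria cells (1.35, 1.26 to 1.45) and 398 against 207 CPM in naive cells (0.94, 0.84 to 1.04). N4bp3 had ratios of 1.14 (0.89 to 1.39) and 0.78 (0.60 to 0.97), and Tnfrsf12a of 1.11 (0.96 to 1.27) and 0.98 (0.85 to 1.12). Myct1 had 0.78 and 0.71, Map9 0.63 and 1.07, and Adgrl4 0.54 and 0.46. All 7 were over 25% higher in both libraries, where 7.36% of 8030 genes were; the genes were chosen from these cells, and nothing is read from that count.

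Other genes moved with this split. Mllt3, 1 of the 4 genes of the marker sum, was lower in Ctla2a-rich cells, at -0.82 (-1.01 to -0.64) in Listeria and -0.63 (-0.78 to -0.47) in naive cells, while Procr, Mecom and Hlf lay between -0.03 and 0.17. All 10 measured G2 and M phase genes were over 20% lower in Ctla2a-rich Listeria cells and 9 of 10 in naive cells, at medians of -2.66 and -2.06, against -0.14 and -0.10 over all genes, of which 39.5% and 26.8% were lower. The progenitor gene Dntt was at -4.80 and -3.76, and Fos at -3.19 and -2.34. Restricting the split to cells with a marker sum over 4 and a G2M sum under 5, a choice made after seeing the data, left 388 against 390 Listeria and 418 against 419 naive cells. There Krt18 was at 1.18 and 0.61, Ctla2b at 1.12 and 1.11, N4bp3 at 1.26 and 0.77, Tnfrsf12a at 1.26 and 0.74 and Map9 at 0.39 and 0.73. These 5 were over 25% higher in both libraries, where 9.78% of genes were, Myct1 was at 0.39 and 0.25, and Adgrl4 at 0.28 (0.15 to 0.40) and 0.03 (-0.11 to 0.16). Immediate early genes had medians of -1.27 and -0.64 in these Ctla2a-rich cells, against -0.11 and -0.09 over all genes, and Mllt3 was at -1.06 and -0.64.

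The genes whose profile over the 15 strata was most like that of Ctla2a were looked for among 2843 genes with at least 50 CPM, by Pearson's r of log2(CPM + 10), ranked by the lower r of the libraries. The strata of a library share its depth and its free RNA, so r is a description. Ctsd, the aspartic protease cathepsin D, came first, with r of 0.90 in the Listeria and 0.89 in the naive library. Crlf2, the receptor for the cytokine TSLP, had 0.90 and 0.84, and Txn1, thioredoxin, 0.87 and 0.82. The next 7 were Gng5, Rabgef1, Foxn3, Ehd4, Bmpr2, Cd63 and Elk3. Of the 8 genes, Myct1 ranked 15, Map9 30, Krt18 41, Ctla2b 64, Adgrl4 206, N4bp3 251 and Tnfrsf12a 416. Over the strata Krt18 and Adgrl4 had an r of -0.24 in Listeria and 0.69 in naive cells, and Adgrl4 and Tnfrsf12a -0.62 and 0.74, so both pairs had opposite signs in the libraries.

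The pathways around the genes were followed with lists, whose counts in lineage-low cells stand beside the 19.7% of all genes that were over 25% higher and the 6.84% over 20% lower in the Listeria library. Of the cathepsins and their inhibitors, 11 of 15 were measured in lineage-low cells, 1 over 25% higher and 5 lower in the Listeria library, at a median of -0.24 against 0.10 over all genes. Ctsl, the protease that Ctla2a protein inhibits, had 96.0 CPM in Listeria and 96.8 CPM in naive cells, and Cst3, cystatin C, 363 and 544 CPM. Ctsl was higher in Ctla2a-rich cells, at 0.59 and 0.43, and Cst3 lower, at -2.15 and -2.32. In the split restricted to a marker sum over 4 and a G2M sum under 5, Ctsl was at 0.20 and 0.06 and Cst3 at -0.49 and -0.69. Of the 11, 2 were higher and 8 lower in Ctla2a-rich Listeria cells, where 22.3% and 39.5% of all genes were. In naive cells 1 was higher and 6 lower, where 10.2% and 26.8% were. Of TWEAK receptor signalling, 17 of 19 were measured, 3 higher and 4 lower, at a median of 0.17 against 0.10 over all genes. The NF-kB inhibitor gene Tnfaip3 had 102 CPM in Listeria and 190.4 CPM in naive cells and Traf3 22.7 and 12.7 CPM. In Ctla2a-rich cells 10 of 17 were higher in the Listeria library, where 22.3% of all genes were, and 1 of 17 in the naive library, where 10.2% were. Lower were 3 of 17 in the Listeria library, where 39.5% of all genes were, and 4 of 17 in the naive library, where 26.8% were. The medians of the 17 were 0.49 and 0.02. Among those that were higher in Listeria cells, Traf1 was at 1.96 and 0.23, Relb at 1.22 and 0.08 and Rela at 0.89 and 0.48. The ligand gene Tnfsf12 stayed below 10 CPM, at 5.55 and 7.54 CPM.

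Krt8, named here after its values were seen because keratin 8 is the partner of keratin 18, had 6.50 CPM in Listeria and 8.60 CPM in naive lineage-low cells, against 326 and 304 CPM of Krt18. No other keratin of the list reached the minimum either. The 6 of 13 genes of that list that were measured were Vim, Lmna, Lmnb1, Lmnb2, Plec and Epcam, so its counts say nothing of keratins; 1 of them was higher and none lower in the Listeria library, namely Plec, plectin, a linker of intermediate filaments, with 603 and 452 CPM. Of genes shared by endothelium and stem cells, 20 of 22 were measured, 1 higher and 4 lower, at a median of -0.09. Over the HSC marker sum, 14 of these 20 were over 25% higher in each library, where 24.8% of all genes in the Listeria and 21.9% in the naive library were, at medians of 0.92 and 1.09, and Emcn, endomucin, was at 1.94 and 2.38. In Ctla2a-rich Listeria cells 2 of the 20 were higher and 12 lower, where 22.3% and 39.5% of all genes were. In Ctla2a-rich naive cells 1 was higher and 6 lower, where 10.2% and 26.8% of all genes were, the 6 being close to that share. Of adhesion receptors 6 of 15 were measured, 2 higher and none lower, and Adgrg1 had 474 and 451 CPM. Of Nedd4-family ligases and adaptors 13 of 15 were measured, 3 higher and 1 lower, and Nedd4 had 309 and 296 CPM. Of microtubule-associated proteins 8 of 16 were measured, 2 higher and none lower. Multipotent progenitor genes had 6 of 14 lower and none higher, G2 and M phase genes 8 of 10 higher, S phase genes 8 of 12 higher and 1 lower, and immediate early genes 7 of 14 lower and none higher in the Listeria library; what part these states had in the levels of the 8 genes was not tested beyond these splits.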

How the data were processed

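Data of 2 libraries, 1 in each group, were used. The authors deposited unnormalized UMI counts of all barcodes, cells or not. Cell Ranger 3.0.2 and the mm10 build are named in the submitters' processing notes; the reads were not used here. Cells were kept with at least 2500 UMIs, 500 genes and at most 10% mitochondrial UMIs. Counts were summed over sets of cells and scaled to CPM, with exact Poisson intervals for levels, exact binomial intervals for log2 ratios and Clopper-Pearson intervals for shares, at the 95% level. Each cell went to the gate with the largest marker sum over its minimum; gates are ranges of a summed count, not cell types. A gene was counted when over 25% higher or over 20% lower, among genes that reached 10 CPM in 1 library or both (in lineage-low cells, for splits of those cells). With 1 library in each group no test was run. The 8 genes and all gene lists were chosen with earlier results of these data known. Named besides the 8 are the binning genes, up to 4 genes of each list with the highest level, the 2 with the largest and the 2 with the smallest ratios, and the 10 genes most like Ctla2a. Positions came from GENCODE vM21, with 30934 of 31053 identifiers matched. The ratio and likeness steps were tested on simulated data. Alternatives used TMM factors of edgeR 4.0.16 and median-ratio size factors of DESeq2 1.42.0 in R 4.3.3; the rest ran in Python 3.11.15 with numpy 2.4.6, scipy 1.17.1 and pandas 2.3.3.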

Additional observations from a re-analysis of the deposited data

Results flagged for a closer look

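The Listeria over naive log2 ratio of Ctla2a had opposite signs at the ends of the immediate early order, 0.408 in the lowest quartile of lineage-low cells and -0.267 in the highest. That of Krt18 did too, at 0.811 in the lowest and -0.624 in the highest quartile. Within a library, Krt18 was lower in the highest than in the lowest immediate early quartile of Listeria cells, at -0.795, and higher in that of naive cells, at 0.639. Tnfrsf12a was lower in cells with a high HSC marker sum than in cells with none in the Listeria library, at -0.281, and higher in the naive library, at 0.395; with gated cells included both ratios were above 0, at 0.596 and 1.722. These results were picked out because the effect had opposite signs in 2 sets of cells. With 1 library in each group none of these differences was tested.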

How the results depend on the processing

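Of 18 alternative settings, 14 were planned and 4 were chosen after seeing the data. The planned setting without a CPM minimum could not move anything, because all 8 genes passed that minimum. Its values and counts repeat the main ones and are among those given below as staying. Of 716 values of single genes, 564 stayed within their counting interval and 152 moved further, and 17 changed sign. With bins over all kept cells 4 did: the Cd34 ratio of Tnfrsf12a in Listeria cells was 0.022 in place of -0.538, its HSC marker ratio there 0.596 in place of -0.281, and the Cd34 ratios of Map9 and Krt18 in naive cells 0.687 and 1.098 in place of -0.277 and -0.071. The other 13 were of ratios reported at 0.15 or less from 0. Among them was the Listeria over naive ratio of Tnfrsf12a over all kept cells. It was 0.423 in place of -0.036 with free RNA subtracted, where the median of all genes was 0.23. Of 82 counts of genes past the limits, 78 stayed within 1.5 times. With free RNA subtracted, 6 of the 8 genes were over 25% higher in the Listeria library over all kept cells (3 without), where 35.9% of all genes were. In lineage-low cells 1 was then higher (0 without), where 43.3% of all genes were, and 1 over 20% lower (3 without), where 3.77% were. With bins over all kept cells, 4 of the 8 and 10.8% of all genes were over 25% higher with Cd34 in both libraries, against 1 of the 8 in lineage-low cells. Part of the free RNA shift follows from the method, since 12.4% of Listeria and 22.9% of naive UMIs were subtracted and levels were not rescaled. Other causes of these shifts were not tested. TMM and median-ratio factors shifted every Listeria over naive ratio by -0.059 and -0.049 over all kept cells and by -0.096 and -0.044 over lineage-low cells. No paired analysis was possible because each group is 1 library. Counting intervals of Ctla2b, N4bp3 and Map9 in the smaller sets of cells are wide, and the spread between mice is unknown.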
